A study of Mus musculus with 32 samples.

Results

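RNA captured on chromatin was compared between mouse embryonic stem cells (mESC) and oligodendrocyte progenitor cells (mOPC), both crosslinked with 1% formaldehyde (1FA) and processed by RADICL-seq. In this assay an adapter joins an RNA to the DNA beside it inside fixed nuclei, and the joined molecule is read as an RNA tag plus a DNA tag. Every interaction listed for the 3 mESC 1FA and the 3 mOPC 1FA libraries was used, which are 6 of the 15 libraries and 12 of the 32 repository entries, because the RNA side and the DNA side of a library are separate entries. The mESC were R08 cells, a male line grown without feeders in the presence of LIF, and the mOPC were Oli-neu cells, an immortalised progenitor line grown with N2 supplement, thyroid hormones, bFGF and PDGF-BB. Each cell type was therefore 1 line in its own medium, and cell type, line and medium cannot be told apart. The replicates were batches of cells of different passage number.

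Much of the RNA on chromatin is nascent transcript, still held by RNA polymerase at its own gene. Its contacts are densest near that gene and fall with distance. The assay includes a digestion with RNase H, by which the authors meant to reduce such nascent contacts. A smaller group of nuclear RNAs leaves its locus. Malat1, a long noncoding RNA of nuclear speckles, and the small nuclear RNAs of the spliceosome contact genes on many chromosomes, and Neat1 builds paraspeckles. Embryonic stem cells are known for the pluripotency factors that keep them self-renewing, and oligodendrocyte progenitors for the Sox and Olig factors and for neural adhesion molecules on their surface.

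The libraries listed 2667971, 2441619 and 2832717 interactions in mESC and 2210765, 2107741 and 1998951 in mOPC. They came from 14248 RNA genes in mESC and 11681 in mOPC, of which 10529 were listed in both. The authors listed a pair of an RNA gene and a 25-kb DNA bin only where it passed their significance test on the pooled replicates, and the smallest listed pair held 3 interactions in either cell type. These totals are therefore not the sequencing depth, a gene listed at 0 may still have been captured, and the replicates of a cell type share 1 list of pairs, so that p-values cover only the spread between these libraries. Below, values per library are numbers of listed interactions in the order of replicates 1 to 3, and a log2 fold change is mOPC over mESC after TMM scaling (limma, standard error in parentheses where given). A gene was called at an adjusted p under 0.05.

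The most captured RNA gene of mESC was Gm22973, a small nuclear RNA gene of 191 nt (mm10, chromosome 12, 59040335 to 59040525, plus strand), which carries the letters by which U2, a spliceosomal RNA, pairs with the branch site of introns. That stretch is shown because it tells which kind of small nuclear RNA led the mESC libraries, with GTAGTA (bases 33 to 38 of the transcript) in capitals. These letters occur in 3.69% of the 1383 small nuclear RNA transcripts annotated in GENCODE M21.
Gm22973: ctaagatcaagtGTAGTAtctgttcttatc
It had 73919, 113253 and 111028 interactions in mESC and was listed at 0 in every mOPC library. Such genes occur in similar copies, and since only uniquely mapped tags were kept, tags that fit several copies equally well are missing from its counts.

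Of 10256 RNA genes tested, 7969 (77.7%) were called, 3564 (34.8%) higher and 4405 (43.0%) lower in mOPC, and the libraries of the cell types did not overlap for 80.1%. With so large a background, a list in which most members were called is not distinguished by that alone, and each list below is given with its direction and its median log2 fold change, beside a median of −0.21 over all genes tested. Scaling by the total number of interactions in place of TMM moved that median to −0.73 and gave 2609 higher and 5623 lower calls, so that the share of higher calls fell from 44.7% to 31.7%. Fewer cells with an RNA and less of the RNA per cell cannot be told apart here. Of the called genes, 291 were listed at 0 in mESC and 1016 at 0 in mOPC. These were all the tested genes listed at 0 in a cell type, and each passed the filter through the other cell type alone. Their calls therefore rest on the listing, and they are counted in the lists below. Of 8949 tested genes listed in both cell types 6662 were called, and their absolute log2 fold change had a median of 1.50. Fitted fold changes of genes listed at 0 depend on the prior count and are given only within medians, so the median over members listed in both cell types is added for the lists where some were at 0. Over all genes tested that median was −0.05.

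The 10 largest rises among genes listed in all 6 libraries were as follows. Nlgn1, a synaptic adhesion molecule, had 1, 5 and 2 interactions in mESC and 4888, 4891 and 5463 in mOPC, a log2 fold change of 11.70 (SE 0.412, limma adjusted p = 8.46e-09). Tnr, the extracellular matrix protein tenascin-R, went from 1, 10 and 5 to 6792, 6812 and 7775 (11.50, SE 0.586). Ptprz1, a receptor phosphatase of progenitors, went from 1, 4 and 2 to 3387, 2849 and 2881 (11.05), and Bcas1, which marks oligodendrocytes as they begin to myelinate, from 1, 5 and 2 to 4473, 4271 and 3669 (11.40). No mESC library came near an mOPC library for any of these 4 genes. The kainate receptor gene Grik2 (10.97), Slc9a9 (10.79), the phosphodiesterase gene Pde7b (10.67), the neuregulin receptor gene Erbb4 (10.49), Slc35f1 (10.40) and the adhesion gene Negr1 (10.32) completed the 10 largest. Restricted to pairs of RNA gene and bin that both cell types listed, all 10 stayed higher, at smaller values (Nlgn1 5.09, Tnr 6.40). Folds that rest on so few mESC interactions depend on the settings, and so may their order. Over all alternatives the value of Nlgn1 ran from 5.09 to 13.84.

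The largest falls on the same terms were smaller. Fn1, which encodes fibronectin, had 1577, 891 and 1190 interactions in mESC and 4, 3 and 1 in mOPC (log2 fold change −7.85, SE 0.381, limma adjusted p = 8.19e-08). Dnah8, an axonemal dynein, went from 1355, 1003 and 1058 to 2, 2 and 3 (−7.81), and Igf2bp3, an RNA-binding protein of early development, from 717, 530 and 661 to 5, 1 and 1 (−7.25). The others were Inpp5d (−7.60), 2900026A02Rik (−6.82), the ion channel gene Asic2 (−6.68), Casz1 (−6.55), Tacc1 (−6.40), the long noncoding Platr22 (−6.24) and Gldc, a glycine-cleaving enzyme (−6.14). Each of the 10 was higher in every mESC library than in any of mOPC. Over pairs listed in both cell types Asic2 was not tested, and the other 9 stayed lower in mOPC at smaller values, from −2.39 for Tacc1 to −5.73 for Fn1.

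Of the genes called while listed at 0 in the other cell type, those with the most interactions in mOPC were Lhfpl3 (12916, 13200 and 12965), the contactin gene Cntn1 (9565, 9474 and 10012), Pde4b (4188, 4131 and 4273), the netrin receptor gene Unc5c (3938, 3763 and 3812) and Astn2, which acts in neuronal migration (2763, 2549 and 2411). Those with the most in mESC, after Gm22973, were the RNA-binding protein gene Rbpms (7753, 6126 and 7897), the Hedgehog transcription factor Gli2 (5659, 4613 and 5191), the orphan nuclear receptor Esrrb (5199, 4183 and 4374) and the calcium channel gene Cacna1a (2559, 2244 and 2525). No fold is given for these.

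The most captured RNAs took a larger share in mOPC, an order that for the first 10 depended on Malat1 and Gm22973. The 10 most captured genes gave 9.99% ± 0.556 of interactions in mESC and 17.8% ± 0.955 in mOPC (SD, n = 3 each), and the top 100 gave 24.6% ± 0.273 and 34.6% ± 0.855. Without Malat1, an alternative chosen after seeing the data, the top 10 gave 8.68% ± 0.963 in mESC and 6.95% ± 0.312 in mOPC, and the top 100 23.2% ± 0.526 and 25.7% ± 0.754. Without Gm22973 as well, the top 10 gave 5.41% ± 0.0417 in mESC and 6.95% in mOPC, and the top 100 20.3% ± 0.246 and 25.7%. Malat1 led in mOPC with 292296, 258180 and 216210 interactions against 67441, 39879 and 38130 in mESC (log2 fold change 3.28, SE 0.420; 1.81 over pairs listed in both cell types), and mESC replicate 1 was the highest mESC library. The genes that followed in mOPC were mostly specific in amount. Anks1b, an ankyrin-repeat protein of synapses, went from 139, 236 and 293 to 16063, 16824 and 17365 (7.14). The transcription factor gene Sox6 went from 54, 59 and 53 to 12554, 12797 and 12155 (8.65). The number of DNA bins contacted by Anks1b RNA was 55 in mESC and 1624 in mOPC, and that of Sox6 RNA 17 and 1037, and each bin listed in mESC was also listed in mOPC. Pvt1, a long noncoding RNA beside Myc, was well captured in both, at 9275, 10378 and 13307 against 16792, 18414 and 18060 (1.55), in 921 and 861 bins of which 511 were shared. In mESC the top genes included Jarid2, a Polycomb cofactor, at 13688, 13495 and 16553 against 736, 802 and 611 (−3.50), with 1051 bins in mESC and 81 in mOPC, all 81 of them shared. Fgfr2, also among them (−2.37), is annotated here with a span of 2960.9 kb that overlaps 7 coding genes on its strand, and Gm20388 with 4434.9 kb that overlaps 25. Their values may therefore hold tags of the overlapped genes, which were not counted apart. The direction of Gm20388 (−0.57) turned to 0.59 when values were centred on each chromosome's median.

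**Figure D1:**
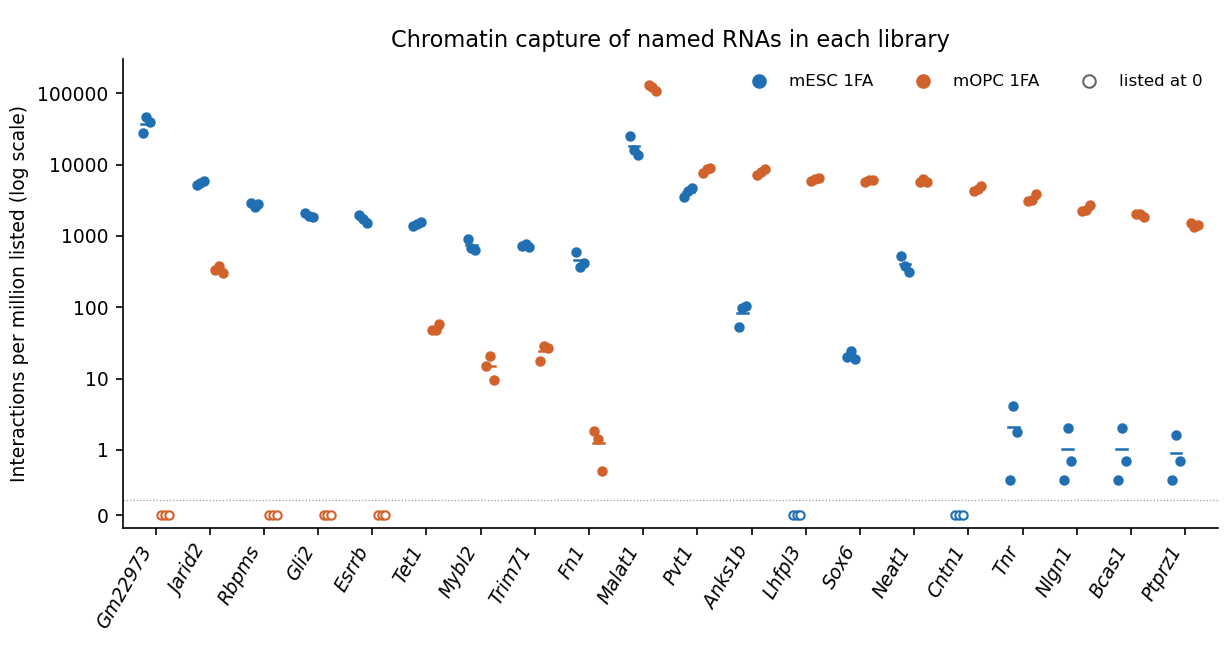
Capture in CPM of the listed interactions of each library (log scale) of 20 named RNA genes in each library, with mESC 1FA in blue and mOPC 1FA in orange; short lines are means of 3 libraries and open points below the dotted line are libraries where the gene was listed at 0. The libraries of a cell type lie close together where a gene has many interactions and spread more where it has few, as for Tnr in mESC. Among these genes Malat1 and Pvt1 are high in both cell types.

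Pluripotency genes were scarcely listed in mOPC. Of 29 factors and markers 23 were tested, 22 were lower and none higher (median log2 fold change −6.35, and −2.19 over the 5 listed in both cell types). Their summed interactions were 15557, 12874 and 14179 in mESC and 105, 132 and 98 in mOPC, and 18 of the 23 were listed at 0 there. Beside Esrrb, Tfcp2l1 (1395, 1093 and 1162), Nr5a2 (1117, 1126 and 1385) and Zfp42 (746, 531 and 742) had the highest counts among those at 0. The core factors Pou5f1 (23, 23 and 26) and Nanog (19, 21 and 24), short genes, were listed at low counts in mESC and at 0 in mOPC. Trim71, a regulator of differentiation, fell from 1933, 1876 and 1977 to 39, 61 and 53 (−4.41), and Mybl2, a cell cycle factor, from 2455, 1657 and 1806 to 33, 43 and 19 (−5.15). Zfp281 was not called (0.25).

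The progenitor list moved the other way. Of 30 genes 20 were tested, 17 were higher and 1 lower in mOPC (median 6.98, and 5.30 over the 16 listed in both). Summed interactions were 1995, 2129 and 2472 in mESC and 64492, 64867 and 66310 in mOPC. Sox10, the lineage factor, had 0, 4 and 4 interactions in mESC and 313, 275 and 483 in mOPC, Olig2 had 0 throughout and 45, 34 and 58, and Cspg4, the NG2 proteoglycan, 9, 17 and 15 and 1230, 1181 and 1493. Xylt1, which starts the sugar chains of proteoglycans, rose from 362, 402 and 473 to 6800, 7635 and 7651 (5.01). The exceptions were Megf11, lower in mOPC (402, 301 and 302 against 9, 13 and 9), and Sox5 and Zfp536, not called. A defining surface marker, the PDGF receptor gene Pdgfra, went against the label: it was below the filter, with 8, 56 and 69 interactions in mESC and 3, 8 and 4 in mOPC.

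Of 25 myelin and maturation genes 14 were tested, with 11 higher and 2 lower (median 3.12, and 2.77 over the 11 listed in both). The 2 lower genes are not named here. Of the tested genes 2 were listed at 0 in mESC and 1 at 0 in mOPC. After Bcas1, Nfasc had 689, 720 and 827 interactions in mESC and 1872, 1909 and 1547 in mOPC (2.10), and Itpr2, a calcium release channel of newly formed oligodendrocytes, 19, 23 and 20 against 587, 560 and 609 (5.64). Mbp, the myelin basic protein, had 15, 16 and 16 against 184, 148 and 188. Tcf7l2 was not called (0.05, and −0.46 by total scaling).

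Markers of other cell types were checked for each line. For neurons 6 of 14 were tested, 3 higher and 3 lower in mOPC (median −0.08, and 3.66 over the 4 listed in both). Among them Map2, a dendritic cytoskeleton protein, was higher (73, 35 and 71 against 1987, 1896 and 2151) and Stmn2 was lower (896, 647 and 892 against 0). For astrocytes 6 of 11 were tested, 2 higher and 2 lower (median −0.58, and −0.83 over the 3 listed in both), and summed interactions stayed at or under 475 in every library. For microglia 2 of 10 were tested, both lower in mOPC, and for fibroblasts only Prrx1 of 10 was tested, at 0 in mESC and 111, 105 and 139 in mOPC. None of 8 trophoblast markers passed the filter, nor did 11 of 12 primed epiblast genes, all but Cdh2 (higher in mOPC, 5.54). The mESC libraries did hold primitive endoderm genes. All 8 tested of 10 were lower in mOPC (median −7.10, and −2.56 over the 3 listed in both), with sums of 2132, 4191 and 4957 in mESC and 58, 42 and 44 in mOPC. The first mESC library was below the others for this list: Gata4 had 108, 333 and 425 interactions there and Col4a1 260, 817 and 920. Both were listed at 0 in mOPC, so no fold is given. The part of these genes in the other results was not tested.

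**Figure D2:**
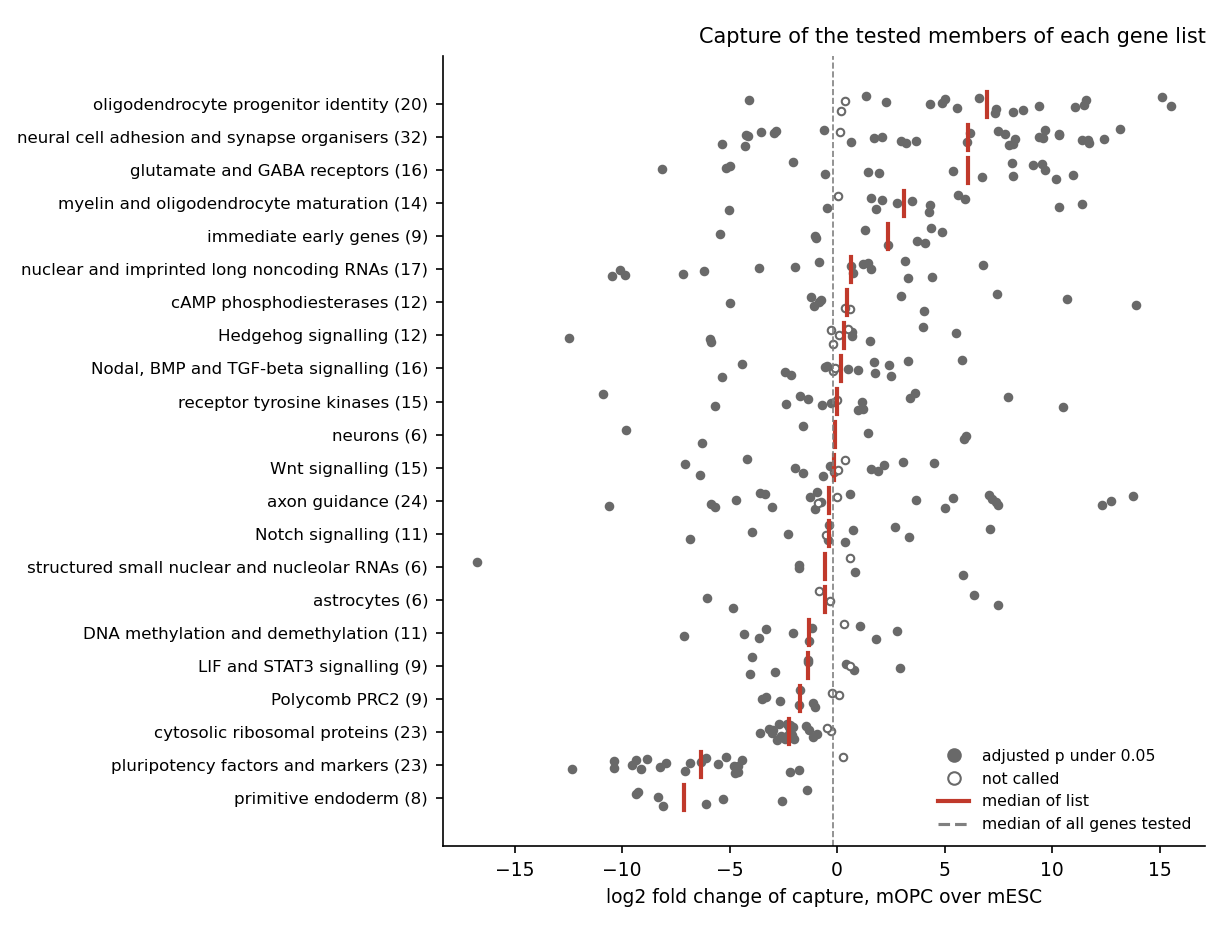
Log2 fold change of capture (mOPC over mESC, horizontal axis) of each tested member of the lists with at least 6 tested genes; filled points passed an adjusted p under 0.05, open points did not, red bars are list medians and the dashed line is the median of all genes tested (−0.21). Points of genes listed at 0 in a cell type are fitted values that depend on the prior count. Pluripotency and primitive endoderm genes lie to the left, and progenitor, neural adhesion and receptor genes to the right, while most signalling lists spread over both sides.

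RNAs of most tested genes of Polycomb repressive complex 2, which methylates histone H3 at lysine 27, were captured less in mOPC. Of 12 genes 9 were tested, 7 were lower and none higher (median −1.72). Beside Jarid2, the accessory subunit Mtf2 fell from 1210, 797 and 1151 to 56, 61 and 56 (−3.31), the core subunit Suz12 from 725, 543 and 707 to 49, 53 and 71 (−2.66), and the methyltransferase Ezh2 from 389, 356 and 502 to 66, 62 and 70. Aebp2 (0.09, and −0.43 by total scaling) and Rbbp4 (−0.25) were not called. Among DNA methylation genes 3 were higher and 7 lower of 11 tested (median −1.32, and −1.25 over the 10 listed in both). The paralogs differed in direction. The oxidase Tet1 fell from 3734, 3639 and 4482 to 106, 100 and 116 (−4.35), Tet2 from 873, 896 and 1168 to 134, 120 and 130 (−2.07), and Tet3 rose from 292, 246 and 241 to 1017, 1040 and 959 (2.80). Likewise the methyltransferase Dnmt3b fell from 137, 183 and 196 to 6, 7 and 9 (−3.62), its cofactor Dnmt3l was listed at 0 in mOPC, and Dnmt3a rose from 299, 292 and 319 to 575, 624 and 556 (1.79).

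Genes of the LIF pathway, which maintains mESC in culture, were 3 higher and 5 lower of 9 tested (median −1.36, and −0.48 over the 8 listed in both). The receptor subunits Lifr (977, 942 and 1218 against 31, 28 and 47) and Il6st (705, 562 and 703 against 55, 40 and 53) were lower. The transducer Stat3 was called higher under TMM (0.39, SE 0.120) and had the opposite sign by total scaling (−0.13). In the Nodal, BMP and TGF-beta list 8 were higher and 6 lower of 16 (median 0.20, and 0.50 over the 15 listed in both). The inhibitor Smad7 fell from 1751, 1872 and 2008 to 56, 49 and 40 (−4.43), the ligand Tgfb2 rose from 11, 10 and 14 to 436, 397 and 304 (5.81), and the transducer Smad2 (−0.10) was not called.

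Receptor tyrosine kinases were split, with 7 higher and 7 lower of 15 tested. The neurotrophin receptor Ntrk3 rose from 17, 20 and 17 to 2488, 2673 and 2377 (7.93), whereas the ephrin receptor Epha4 had 1934, 1442 and 1830 in mESC and was listed at 0 in mOPC. In Hedgehog signalling 5 were higher and 3 lower of 12. The factors Gli1 and Gli2 were listed at 0 in mOPC, and Gli3 was near even in number (257, 230 and 315 against 232, 231 and 249), which is a log2 fold change of 0.69 after scaling. In Notch signalling 5 were higher and 5 lower of 11. Rbpj, the DNA-binding effector, fell from 2113, 2118 and 2523 to 79, 79 and 79 (−3.97), while its coactivators Maml2 (24, 47 and 28 against 2547, 2637 and 2254, 7.11) and Maml3 (143, 319 and 347 against 918, 954 and 828, 2.68) rose. In Wnt signalling 5 were higher and 7 lower of 15. The receptor Ror2 fell from 2193, 2100 and 2241 to 66, 68 and 66 (−4.17), the kinase Gsk3b rose from 795, 783 and 1088 to 1484, 1410 and 1424 (1.56), and Apc was not called (0.04, −0.47 by total scaling). The medians over all tested members were 0.01 for the kinases, 0.30 for Hedgehog, −0.39 for Notch and −0.16 for Wnt. Over members listed in both cell types they were 0.96 (13 genes), 0.69 (9), −0.0071 (10) and 0.04 (13), so that the Notch list was near 0 and the Wnt list changed sign.

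Of 40 neural adhesion and synapse organiser genes 32 were tested, with 23 higher and 8 lower in mOPC (median 6.10, and 3.67 over the 23 listed in both). Families were divided. The latrophilin Adgrl3 rose from 45, 42 and 58 to 4951, 4554 and 5062 (7.49) and Adgrl2 fell from 317, 333 and 429 to 30, 23 and 30 (−2.83). Among teneurins Tenm3 (1728, 1775 and 2205 against 94, 93 and 87, −3.52) and Tenm2 (40, 57 and 33 against 3, 2 and 3) were lower, and Tenm4 was not called (0.11, and −0.40 by total scaling). Csmd2 (19, 34 and 32 against 3499, 3817 and 3120) and Csmd3 (1, 4 and 2 against 1926, 1744 and 1736) were higher, and Csmd1 was listed at 0 in mOPC. Dscaml1, a cell recognition protein, was captured in both (613, 744 and 934 against 5272, 5785 and 4983, 3.67).

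Glutamate and GABA receptor genes had 11 higher and 5 lower of 16 tested (median 6.06, and the same over the 10 listed in both). The AMPA subunit Gria4 (6, 16 and 16 against 2030, 1786 and 2060, 8.18) and Grid1, a delta-type subunit (90, 88 and 110 against 2121, 2205 and 2329, 5.37) were higher. The NMDA subunits Grin1 (350, 225 and 200), Grin2a (17, 49 and 38) and Grin2b (19, 34 and 35) were listed at 0 in mOPC. Kainate subunit Grik3 was captured in mESC too, at 4976, 3496 and 3744 against 1502, 1687 and 1378 (−0.56).

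Axon guidance genes were even, with 11 higher and 11 lower of 24 (median −0.39, and −0.77 over the 15 listed in both). The ligand Ntn1, netrin-1, fell from 10902, 8208 and 9079 to 479, 546 and 511 (−3.34), while its receptors Unc5c, above, and Dcc (3, 7 and 6 against 397, 394 and 438, 7.05) were higher in mOPC. The semaphorins Sema6a (18, 30 and 26 against 2297, 2290 and 2409, 7.41), Sema6d and Sema3d were higher, the latter 2 from a listed 0, and Slit3 (1671, 1188 and 1377) was listed at 0 in mOPC. Of 12 phosphodiesterase genes tested 5 were higher and 5 lower (median 0.47, and the same over the 10 listed in both). Pde10a rose from 19, 26 and 14 to 1877, 2032 and 1674 (7.41) and Pde4d, captured most in mESC, fell from 3526, 3215 and 4176 to 1138, 1097 and 1114 (−0.85). Over all coding genes, called rises had a median annotated span of 46.9 kb, called falls 36.6 kb and all tested 36.7 kb.

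Long noncoding RNA genes were 259 higher and 222 lower of 563 tested, coding genes 3258 higher and 4142 lower of 9544. In a list of nuclear and imprinted long noncoding RNAs 9 were higher and 8 lower of 17 (median 0.65, and 1.19 over the 11 listed in both). Neat1 rose from 1404, 919 and 876 to 12746, 13162 and 11286 (4.41). The imprinted Meg3 (1485, 1142 and 1194) and Rian (893, 768 and 895) of the same cluster were listed at 0 in mOPC, as was Tsix (1125, 725 and 1148), the antisense partner of Xist, and Xist itself was listed in neither. Kcnq1ot1, another imprinted RNA, was captured alike in number (4094, 3081 and 3355 against 3078, 3274 and 3315) and was called higher after scaling (0.73, SE 0.139). Of 6 structured small RNAs tested 2 were higher and 3 lower (median −0.57, and 0.62 over the 5 listed in both). Rn7sk, which restrains transcription elongation, rose from 26, 64 and 39 to 1034, 979 and 2120 (5.83, and 1.37 over pairs listed in both cell types). The small nucleolar RNA Snord118 fell from 2626, 5738 and 3191 to 577, 486 and 734 (−1.78) and Rnu3a, another, from 695, 533 and 421 to 76, 73 and 122 (−1.76).

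Cytosolic ribosomal protein genes fell almost as a block. Of 23 tested 21 were lower and none higher (median −2.23), with sums of 1833, 2203 and 2433 in mESC and 257, 192 and 361 in mOPC. Rps19 led in number, at 355, 418 and 462 against 47, 39 and 65 (−2.20). Of 9 immediate early genes tested 6 were higher and 3 lower (median 2.36, and 3.04 over the 8 listed in both). Atf3 rose from 11, 27 and 16 to 308, 298 and 239 (4.86) and Myc from 2, 2 and 6 to 32, 35 and 51 (4.35), while Egr1 had 58, 167 and 160 in mESC and 34, 24 and 36 in mOPC (−1.05, SE 0.387), and its groups overlapped once scaled. The first mESC library was again the lowest for Fos (1, 14 and 16) and Egr1.

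The share of interactions at each distance between the tags was compared next. Interactions from 100 kb to 1 Mb made up 39.9% in mESC and 31.9% in mOPC, and those from 1 to 10 Mb 9.17% and 12.2%. Beyond 10 Mb in cis the shares were 1.87% and 2.87%, and from 10 to 100 kb 28.4% and 25.3% (28.9% and 28.7% without Malat1, and 30.1% and 28.7% without Malat1 and Gm22973). Between chromosomes they were 5.89% and 12.4%, which turned to 4.27% and 0.965% without Malat1 and were 0.540% and 0.965% without Malat1 and Gm22973. Within 10 kb they were 14.8% and 15.4%. Each difference but the last separated the libraries of the cell types, at an exact permutation p of 0.1 (two-sided), the smallest that 3 against 3 allow, and within 10 kb the exact permutation p was 0.8. After adjustment over the distance classes no share reached the threshold (0.12 for the 5 that separated). Contacts between chromosomes rested largely on Malat1 and Gm22973, so shares were recomputed for coding RNAs alone. Among these, 42.6% ± 1.19 of interactions in mESC and 36.9% ± 1.46 in mOPC lay at 100 kb to 1 Mb, 9.67% ± 0.457 and 13.5% ± 0.713 at 1 to 10 Mb, and 0.160% ± 0.0566 and 0.170% ± 0.0209 in trans. Long noncoding RNAs without Malat1 had 0.327% ± 0.100 of their interactions in trans in mESC and 8.33% ± 0.335 in mOPC. Neat1 accounted for most of these in mOPC, with 32, 13 and 12 trans interactions in mESC and 7937, 8599 and 7747 in mOPC, which were 1.69% and 65.4% of its own.

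**Figure D3:**
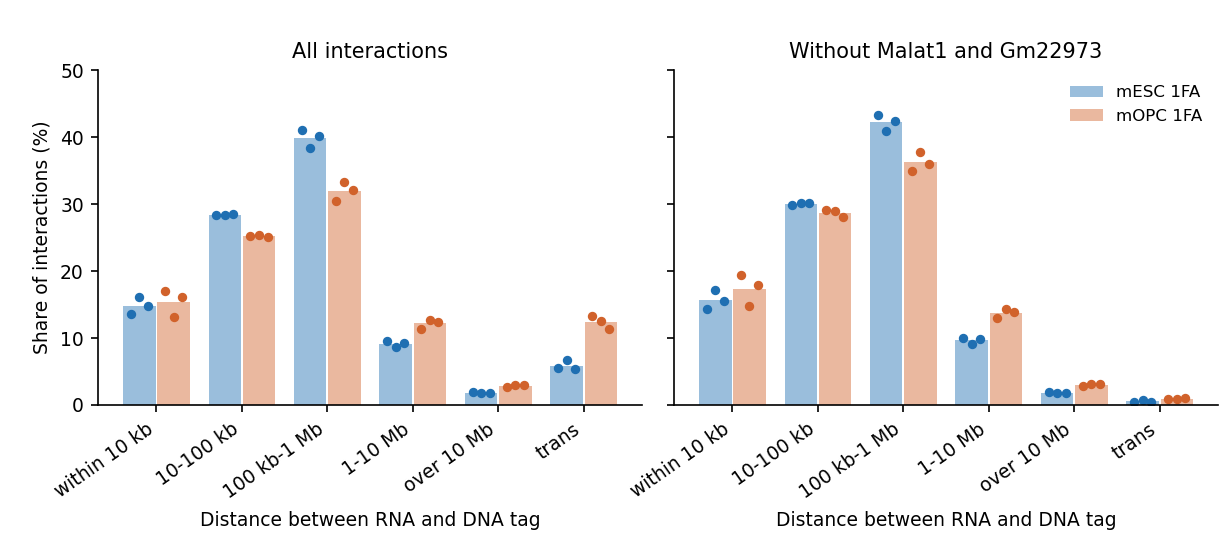
Share of interactions (%) in each class of distance between RNA and DNA tag, with all interactions on the left and without Malat1 and Gm22973 on the right; bars are means of 3 libraries, points are libraries, mESC 1FA in blue and mOPC 1FA in orange. In both panels mESC lie higher at 100 kb to 1 Mb and mOPC higher at 1 to 10 Mb, and the trans class nearly vanishes without the 2 RNAs.

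Shares were also compared by biotype and region of the RNA. Coding RNAs gave 91.7% ± 0.706 of interactions in mESC and 82.5% ± 0.997 in mOPC, long noncoding RNAs 4.06% ± 0.605 and 17.03% ± 1.02, and the class of other noncoding RNAs 4.20% ± 0.988 and 0.425% ± 0.0405. Without Malat1 the coding share was 93.4% and 93.9% (exact permutation p = 0.6), with the direction turned, and the long noncoding share 2.26% and 5.61%. Without Malat1 and Gm22973 the coding share was again lower in mOPC (97.1% and 93.9%, exact permutation p = 0.1). The class of other noncoding RNAs gave 0.447% and 0.484% without Malat1 and Gm22973. Tags that the files place in an exon, but in neither coding sequence nor a UTR, came from noncoding and coding genes. They made up 9.17% ± 0.686 in mESC and 15.7% ± 1.2 in mOPC, turning to 7.47% and 4.13% without Malat1, and were 3.77% and 4.13% without Malat1 and Gm22973. Intronic tags made up 81.2% ± 0.981 of RNA tags in mESC and 77.4% ± 1.59 in mOPC, and coding sequence 5.41% ± 0.928 and 3.15% ± 0.501 (exact permutation p = 0.1 for each of these differences over all RNAs, the smallest possible). After adjustment within each family none passed the threshold (0.1 for biotypes and 0.125 for regions). The intronic difference turned without Malat1, which has no intron in these files, to 82.7% and 88.0%. Tags in 3′ UTRs did not separate the cell types (3.09% ± 0.106 and 3.00% ± 0.236, exact permutation p = 0.7).

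Within a chromosome the 2 cell types shared fewer contacts the farther apart the tags were. mESC listed 289205 pairs of an RNA gene and a 25-kb bin and mOPC 220950, and 116021 were in both, 40.1% of the mESC pairs and 52.5% of the mOPC pairs. Pairs were called on pooled replicates, so no test of the overlap was made. Within 10 kb, 66.9% of mESC pairs and 86.5% of mOPC pairs were shared. From 100 kb to 1 Mb the shares were 39.9% and 64.1%, from 1 to 10 Mb 20.2% and 20.3%, and beyond 10 Mb 2.89% and 2.61%. Between chromosomes they were 22.4% and 21.8%, and 2.29% and 7.26% without Malat1. For RNA genes listed in both cell types alone, 92.4% and 95.8% were shared within 10 kb, 42.3% and 66.3% from 100 kb to 1 Mb and 21.2% and 22.0% from 1 to 10 Mb, while between chromosomes 51.5% and 22.0% were. Among pairs of at least 20 interactions 65.9% and 82.4% were shared within 10 kb, 14.1% and 12.9% from 1 to 10 Mb, and 7.24% and 5.18% beyond 10 Mb. The part of the listing threshold in this order was not tested.

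**Figure D4:**
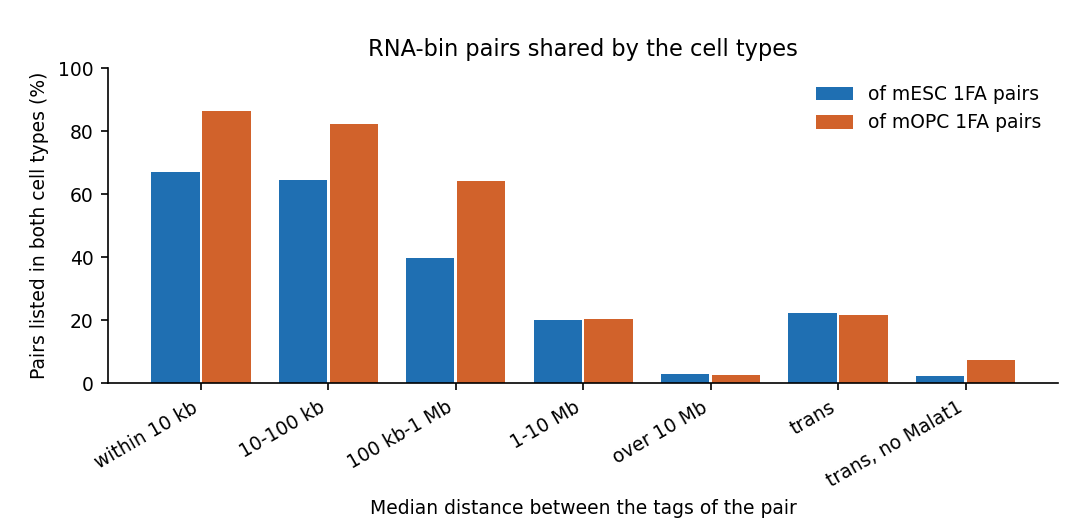
Percent of the pairs of RNA gene and 25-kb bin listed in 1 cell type that the other also listed, by the median distance between their tags (blue, of mESC 1FA pairs; orange, of mOPC 1FA pairs). The shared part falls from 66.9% and 86.5% within 10 kb to under 3% beyond 10 Mb, and trans pairs are shared mainly through Malat1.

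For 3325 genes with at least 50 interactions in every library, the odds of a far contact (over 100 kb or in trans) were compared. They were called different for 2155 genes (64.8%), 292 (8.78%) higher and 1863 (56.0%) lower in mOPC, with a median log2 change of −0.50, and the median far share over genes was 47.1% in mESC and 38.2% in mOPC. Of 1163 genes whose capture differed by under 0.5 on the log2 scale, 5 were higher and 786 lower in far share. Far share and capture moved together: of 775 genes with capture higher by over 1 on that scale, 269 were higher and 75 lower in far share (median 0.20), and of 501 with capture lower by over 1, 0 were higher and 485 lower (−1.24). The calls depended on which pairs were listed and on the distance: over pairs listed in both cell types 216 genes were called (72 higher, 144 lower), and with far set at 1 Mb 1323 were higher and 1042 lower. The far fits set no minimum of far contacts. At 1 Mb the value of a gene without such contacts was therefore set by the pseudocount. Such genes were not counted apart, so no direction of contacts beyond 1 Mb is read from these counts. Among genes with a mean of at least 200 interactions in each cell type, Map2k4, a stress kinase, showed the largest fall, with a far share of 62.2%, 60.4% and 58.3% in mESC and 18.0%, 23.9% and 26.0% in mOPC (log2 change of the odds −2.38, SE 0.173, limma adjusted p = 1.73e-12), at a capture log2 fold change of −0.32. Nfe2l1, a proteasome regulator, fell from 50.2%, 43.4% and 38.2% to 17.3%, 17.2% and 15.4% (−1.96) with capture near even (0.22). With far set at 1 Mb its fitted value was 3.10, under the same limit of the pseudocount. Usp7 (−2.38), Gab1 (−1.85) and Wwc1 (−1.76) fell along with their capture, though Gab1 turned to a rise over pairs listed in both cell types (0.15). Under the alternative settings the falls of Map2k4, Usp7 and Wwc1 kept their sign but varied in size. At the smallest they were −0.36, −0.04 and −0.33, and that of Usp7 was −4.29 at the largest. The named rises came with more capture. The far share of Neat1 was 47.1%, 41.5% and 38.5% in mESC and 80.3%, 86.1% and 84.5% in mOPC (2.82, SE 0.140), and that of Anks1b 54.0%, 62.7% and 56.7% and 82.7%, 85.6% and 83.8% (1.95). The rises of Neat1, Anks1b, mt-Rnr1, 5031425E22Rik and Rsbn1l all turned to falls over pairs listed in both cell types (−0.44, −0.15, −1.25, −0.36 and −1.44).

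The odds of an exonic tag were called different for 42 of 3301 genes (1.27%), 17 (0.515%) higher and 25 (0.757%) lower in mOPC. Of these 8, Malat1, Neat1 and Snord118 among them, had no intronic tag in any library, so that their value was set by the pseudocount and is not a change in exon use. Of 3285 genes with intronic tags 34 were called, 14 higher and 20 lower, and 638 had an unadjusted p under 0.05. The count fell whichever library was left out. In place of 42, the fit called 23 genes without mESC replicate 1, 25 without mESC replicate 2 and 15 without mESC replicate 3. It called 14 without mOPC replicate 1 or 2 and 39 without mOPC replicate 3. Which genes were called each time was not compared, and the part of the smaller number of libraries was not tested. With a pseudocount of 2 the fit called 150 genes, and with the replicate number as a block 18. Foxp1, a forkhead factor, had 7.58%, 7.11% and 6.18% exonic tags in mESC and 2.49%, 2.00% and 1.50% in mOPC (−1.90, SE 0.214, limma adjusted p = 0.00195), while its capture rose (2.50). The long noncoding 5031425E22Rik fell from 25.3%, 19.8% and 24.3% to 8.82%, 8.81% and 7.85% (−1.70). Prune2 went up, from 2.63%, 4.10% and 2.45% to 10.9%, 13.0% and 7.22% (1.80), and so did Gng12, a G protein subunit, from 1.28%, 2.20% and 2.79% to 6.87%, 6.63% and 6.56% (1.78), at a capture log2 fold change of 0.25.

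Interactions were also counted by the gene under the DNA tag, leaving out those of the gene's own transcript. Of 18165 DNA genes 12166 (67.0%) were called, 5865 (32.3%) higher and 6301 (34.7%) lower in mOPC. By total scaling 4800 were higher and 7433 lower, and over pairs listed in both cell types 2890 and 2995 of 13051. The leading RNA came from the same chromosome for 5 of the 10 named genes higher in mOPC and was Malat1 for the other 5. Around Cntn1 on chromosome 15, the DNA of Slc2a13 was listed at 0 in mESC and received 959, 1064 and 929 contacts in mOPC, 48.0% of them from Cntn1 RNA, whose gene lies 478 kb away. Muc19, between them, had 0, 1 and 3 against 308, 339 and 349, with 68.0% from Cntn1 RNA, and the kinesin gene Kif21a 5, 3 and 4 against 600, 554 and 588, with 27.2%. The DNA of Cntn1 itself received 10, 3 and 18 contacts from other RNAs in mESC and 1086, 1041 and 1076 in mOPC (log2 fold change 7.48, SE 0.402), of which Malat1 gave 34.5%. Gm11867 on chromosome 4 (1, 1 and 3 against 224, 255 and 275) was contacted in mOPC by Mmp16 RNA alone, from 288 kb away.

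For all 10 named genes lower in mOPC the leading RNA in mESC came from the same chromosome. Nrg1, the neuregulin gene on chromosome 8, had 535, 408 and 622 contacts in mESC and was listed at 0 in mOPC, and 93.3% came from Rbpms RNA across 899 kb. Grin2a had 253, 203 and 291 and was likewise at 0, with 67.2% from Usp7 RNA across 776 kb. The DNA of Asic2 fell from 620, 506 and 525 to 2, 4 and 3 (−6.78), with 33.4% from Msi2 RNA over 6371 kb. A330033J07Rik, 3123 kb from Jarid2, fell from 206, 221 and 234 to 1, 1 and 1 (−6.64), with 44.0% from Jarid2 RNA.

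The same was counted over all DNA genes with at least 30 contacts. Among genes called higher in mOPC, the leading RNA in mOPC gave a median of 38.3% of contacts. It was Malat1 for 37.4% of them and came from within 1 Mb for 53.8%. Among genes called lower, the leading RNA in mESC gave a median of 35.6%, was Malat1 for 0.534% and came from within 1 Mb for 86.1%. All tested genes gave nearly these shares, with Malat1 leading for 35.6% in mOPC and 0.896% in mESC, so that they are not particular to the called genes. As targets, pluripotency genes had 1 higher and 15 lower of 20 tested (median −1.93), and progenitor genes 17 higher and 5 lower of 25 (1.24), from RNAs of other genes alone. For glutamate and GABA receptor genes, with 11 higher and 5 lower of 16 as RNA, 6 were higher and 11 lower of 20 as DNA (−1.21).

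Counts per 25-kb bin gave 33664 calls of 45387 (74.2%), 15553 (34.3%) higher and 18111 (39.9%) lower, without contacts of genes that overlap the bin, and the libraries did not overlap for 76.8%. By total scaling 13798 were higher and 20022 lower, and over pairs listed in both cell types 6316 and 6127 of 25682. The bin just past the end of Jarid2 (chr13:44925001-44950000) had 202, 202 and 206 contacts in mESC and 19, 24 and 13 in mOPC (−2.87, SE 0.187), and 82.9% of all its mESC contacts were of Jarid2 RNA. A bin listed at 0 in mESC, chr5:41150001-41175000, received 424, 377 and 379 contacts in mOPC. Of all its mOPC contacts 20.8% came from Rab28 RNA, 18.0% from Malat1 and 6.27% from Babam2, whose gene lies on the same chromosome. The rule named 10 bins higher in mOPC, of which 9 lay in the first 45 Mb of chromosome 5, and 2 lower, which were all the called bins lower in mOPC that met its minimum.

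Calls were unevenly spread over chromosomes, for RNA and DNA alike. The number of copies of each chromosome in the 2 lines was not measured here, and it cannot be told apart from the cell type in these values. On chromosome 8, 75 RNA genes were higher and 418 lower in mOPC of 586 tested (median log2 fold change −1.40), and 87 bins were higher and 2248 lower of 2569 (−2.16). On chromosome 10, 286 RNA genes were higher and 147 lower of 537 (0.64), and 1848 bins higher and 282 lower of 2647 (1.41). In the first 45 Mb of chromosome 5, 147 of 207 RNA genes and 690 of 872 bins were higher (medians 2.12 and 3.32), where 41 and 71 were lower, and in the rest of that chromosome 156 and 558 were higher and 238 and 932 lower. All 6 tested genes of the mitochondrial genome were higher in mOPC and all 4 of chromosome Y lower. Mitochondrial RNA tags numbered 1813, 274 and 502 in mESC and 4448, 2954 and 1664 in mOPC. In number, mESC replicate 1 therefore exceeded mOPC replicate 3. RNA and DNA tags of chromosome Y were listed at 0 in every mOPC library.

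The same chromosomes stood out in the contacts of Malat1, whose gene lies on chromosome 19. Of its trans DNA tags 0.870%, 0.957% and 0.821% lay in the first 45 Mb of chromosome 5 in mESC and 8.58%, 8.59% and 8.33% in mOPC. On chromosome 8 they were 13.1%, 13.6% and 14.2% in mESC and 2.41%, 2.31% and 2.42% in mOPC. The genes Lhfpl3, 5031425E22Rik and Babam2, named above, lie in that part of chromosome 5, and Rbpms, Tacc1, Cacna1a, Wwox, Col4a1 and Gab1 on chromosome 8. On chromosome 10 lie Grik2, Pde7b, Slc35f1 and Anks1b, which rose, and Tet1, which fell. The part of the chromosome in the values of all these genes was not tested gene by gene. With values centred on the median of each chromosome, 7827 RNA genes were called in place of 7969, and without chromosomes 5, 8 and 11, 6285 of 8080 tested. Chromosome 10 was kept in the latter fit.

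**Figure D5:**
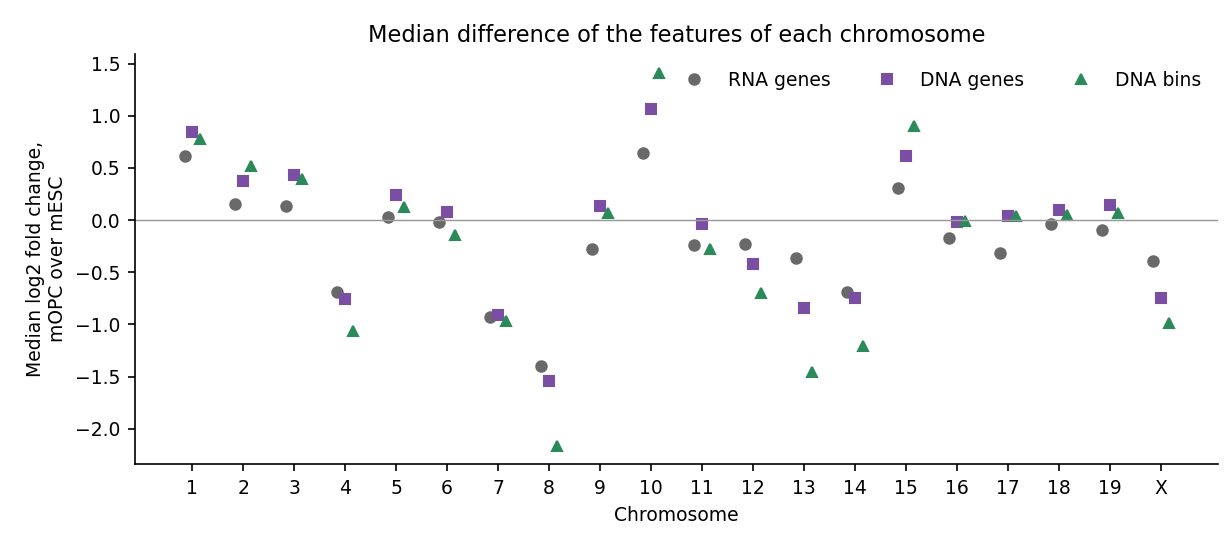
Median log2 fold change (mOPC over mESC) of the tested RNA genes (circles), DNA genes (squares) and 25-kb DNA bins (triangles) of the autosomes and chromosome X. Among these all 3 measures are lowest on chromosome 8 (bins −2.16), and they are above 0 on chromosome 10 (bins 1.41); the opposite parts of chromosome 5 are drawn as 1 value.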

How the data were processed

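Sources were 6 RADICL-seq libraries (3 per cell type). The authors extracted the tags, removed ribosomal and duplicate reads, aligned them to mm10 with BWA 0.7.15-r1140, kept uniquely mapped tags, assigned RNA tags by strand to GENCODE M14 genes and DNA tags to 25-kb bins, and kept pairs with a Benjamini-Hochberg adjusted one-sided binomial p-value under 0.05. The deposited files hold text columns for the tags of each interaction and the deposited p-values of its pair, used to check that pairs were called on pooled replicates. No column holds a count, so interactions (distinct tag positions) were counted per RNA gene, region, bin and DNA gene. Symbols and positions are from GENCODE M21 (99.8% of 15263 identifiers matched).

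Genes or bins with at least 10 interactions in at least 3 libraries were fitted on log2 CPM (prior count 0.5, TMM scaling) with limma 3.58.1 under R 4.3.3 (trend, two-sided, Benjamini-Hochberg). Far and exonic odds used log2 ratios with a pseudocount of 0.5, from genes with at least 50 interactions in every library and, for exonic odds, at least 10 exonic in all. Shares were compared by exact permutation over all 20 splits. The fits were also run on simulated counts with few changed features and no listing of pairs. That setting differs from these data, so nothing about the calls is drawn from it. Intervals and tests cover counting and library spread only.

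Named genes were the 10 largest called changes each way (groups apart, listed in all libraries, mean at least 500 in the higher group), the 5 highest listed at 0 each way, the 10 most captured per cell type and the 4 most captured tested members of each list. For DNA genes, bins and shares they were up to 5 of the largest each way (means of at least 200 in the higher group, or in each group for shares), plus, for DNA genes and bins, up to 5 listed at 0 in the other cell type. Other members named were chosen after their values were seen. Members and lists were chosen with earlier results of these data known. Some list members are not reported here.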

Additional observations from a re-analysis of the deposited data

How the results depend on the processing

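The count of RNA genes called ran from 7803 to 8356 with a library left out. Over pairs listed in both cell types 5179 of 8322 RNA genes were called, 5885 of 13051 DNA genes, 12443 of 25682 bins and 216 of 3203 far shares. Without a filter 55170 of 73429 bins were called, beside 33664 of 45387 in the main fit. With at least 20 interactions per library 3254 of 5020 far shares were called, beside 2155 of 3325. The exon count was 150 with a pseudocount of 2, 23 with own-gene contacts left out, and 14 to 39 with a library left out. The shared pairs were 39.7% of mESC and 54.3% of mOPC pairs without Malat1, 38.1% and 50.2% among pairs of at least 20 interactions, and 44.8% and 55.3% for RNA genes listed in both, an alternative chosen after seeing the data. The cause was not tested for these.

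Replicate numbers name batches of cells and were not used as pairs in the main fits. Correlations of deviations between the cell types were 0.087, 0.140 and 0.101 for libraries of the same number. For libraries of different numbers they ran from −0.225 to 0.093. Whether libraries of the same number shared a factor was not tested. With the number as a block the exon count was 18, and no other count moved by over 1.5 times.

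Directions turned for the following. By total scaling these log2 fold changes were Tcf7l2 −0.46, Aebp2 −0.43, Stat3 −0.13, Sufu −0.43, Apc −0.47 and Tenm4 −0.40. Centred by chromosome they were Gm20388 0.59, Igf1r 0.42 and Apc −0.45. Over shared pairs the bin chr11:3175001-3200000 was 0.31, and the far odds were mt-Rnr1 −1.25, Neat1 −0.44, 5031425E22Rik −0.36, Anks1b −0.15, Rsbn1l −1.44 and Gab1 0.15. At 1 Mb Nfe2l1 was 3.10, in a fit that set no minimum of far contacts. In cis only mt-Rnr1 was −1.70, but the mitochondrial genome is shorter than 100 kb. That value was set by the pseudocount and is not a change in contacts. Differences in shares (mOPC minus mESC, percentage points) without Malat1 were 0.498 for coding RNA, −3.34 for exons, 5.28 for introns and −3.31 for trans. Without Malat1 and Gm22973 they were 0.0369 for ncRNA and 1.97 for introns, while coding RNA was again negative (−3.23), and with each pair counted once 1.57 for introns. Shares that did not separate the cell types turned too. For 3′ UTR tags −0.081 became 0.273 without Malat1, 0.147 without Malat1 and Gm22973 and 0.401 over shared pairs. For contacts within 10 kb 0.564 became −0.239 with own-gene contacts left out. Each also turned with a library left out (3′ UTR 0.038 without mOPC replicate 2; within 10 kb −0.069 without mESC replicate 1 and −0.240 without mOPC replicate 1).

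Files list only significant pairs and the sequencing depth was not used here, so a difference in listing cannot be told apart from a difference in contact.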
